A study of Mus musculus with 56 samples.

Results

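The cells described here are T cells of mouse liver tumours that carry 1 productive beta chain and 2 different productive alpha chains of the T cell receptor, called two-alpha cells below. They were taken from 15 receptor libraries as barcodes called a cell with exactly 1 productive, high-confidence beta contig (TRB) and exactly 2 productive, high-confidence alpha contigs (TRA) whose CDR3 nucleotides differed. Of 7824 barcodes called a cell, 557 met this rule. They were set against 5148 cells with 1 beta and 1 alpha chain, called one-alpha cells, so that two-alpha cells made up 9.76% of the 5705 cells of both kinds.

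A T cell receptor pairs a beta chain with an alpha chain, and the CDR3 loop of each, formed where the V and J segments join, contacts the antigen. Beta rearrangement is normally stopped once one allele is productive, whereas alpha rearrangement goes on at both alleles of the developing thymocyte. Successive joins use TRAV segments further upstream and TRAJ segments further downstream until a receptor is selected, so a T cell can end with a productive alpha chain from each allele. Such cells are known from mice and people, and the surface level of each alpha chain is not read by sequencing.

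The study examined hepatocellular carcinomas made in mice by expressing the oncogene Myc together with either NICD, the active intracellular part of NOTCH1, or sgp53, which targets p53, a tumour suppressor. The Myc construct also encoded a luciferase, either plain (MycLuc) or as MycLucOS, known for carrying model T cell antigens. The libraries fall into 5 groups: female MycLuc with NICD (luc NICD, 3 animals, 1 of them spelled MycLucNICD in its label), female MycLucOS with NICD (lucOS NICD, 3), female MycLuc with sgp53 (luc sgp53, 3), female MycLucOS with sgp53 (lucOS sgp53, 4 libraries from 3 animals) and male MycLucOS with NICD (2). Replicates 3 and 4 of lucOS sgp53 came from 1 animal and were averaged in tests, which left 14 animals. The labels used here give no strain or age for these animals, and immune cells were mixed back with other tumour cells in equal numbers, so counts of T cells do not measure infiltration.

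A library held 38 to 986 one- and two-alpha cells. The median beta contig had 6 to 14 UMIs (unique molecular identifiers, 1 for each captured transcript), with 6 to 9 in the female NICD libraries and 9 to 14 in the sgp53 libraries. Besides the cells compared, 1556 barcodes had a beta and no alpha chain, 219 an alpha and no beta chain, 252 had 2 betas and 1 alpha, and 92 had 2 betas and 2 alphas. None had 3 or more chains of a kind. Of the called barcodes, 41 occurred in more than 1 library. They held 6 two-alpha cells, and none of these 6 carried the same beta in both libraries. The label of these cells rests on receptor contigs alone, because their gene expression libraries were not analysed here.

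The 557 cells held 359 clonotypes when a clonotype was 1 combination of library, beta and both alphas, and 353 when counted by animal. Of these 353, 322 were seen in 1 cell each and 31 in 2 or more cells, which together held 235 cells. The 8 clonotypes with the most cells in an animal are named A to H here. Clones A, B, C, D and H came from the animal of lucOS sgp53 replicates 3 and 4, clones F and G from lucOS sgp53 replicate 1, and clone E from male lucOS NICD replicate 1.

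Clones A, B and C are shown first because their beta chains, all TRBJ2-5, encoded 1 CDR3 peptide by 3 different nucleotide sequences, and because A and B also shared the peptide of an alpha chain joined from TRAV14N-3 and TRAJ22. Each CDR3 is written 5′ to 3′, and capitals mark the bases that differ between clones within the alpha or the beta set.
Clone A beta: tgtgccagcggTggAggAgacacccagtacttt
Clone B beta: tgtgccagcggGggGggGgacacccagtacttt
Clone C beta: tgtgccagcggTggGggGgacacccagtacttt
Clone A alpha TRAV14N-3 TRAJ22: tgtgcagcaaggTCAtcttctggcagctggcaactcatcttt
Clone B alpha TRAV14N-3 TRAJ22: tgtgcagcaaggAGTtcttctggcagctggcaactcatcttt
The beta sequences of clones A and B differ at 3 bases, those of A and C at 2 and those of B and C at 1, and the alpha sequences differ at 3 neighbouring bases. Within each set they encode the same amino acids. This likeness was noticed after the values were seen and was not tested.

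The other alpha chains of clones A to E are given with capitals at the junction, the bases covered neither by a start shared by at least 20% of the distinct CDR3s of that TRAV gene nor by an end shared by at least 20% of those of that TRAJ.
Clone A alpha TRAV3D-3 TRAJ22: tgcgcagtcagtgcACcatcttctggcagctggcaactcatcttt
Clone B alpha TRAV1 TRAJ32: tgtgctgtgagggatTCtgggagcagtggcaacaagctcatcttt
Clone C alpha TRAV8D-2 TRAJ39: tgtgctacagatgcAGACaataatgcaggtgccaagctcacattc
Clone C alpha TRAV9N-4 TRAJ43: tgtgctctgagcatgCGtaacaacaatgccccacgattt
Clone D alpha TRAV3-3 TRAJ11: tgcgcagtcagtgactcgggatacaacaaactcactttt
Clone D alpha TRAV5-4 TRAJ15: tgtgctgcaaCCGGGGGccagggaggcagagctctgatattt
Clone E alpha TRAV14D-2 TRAJ6: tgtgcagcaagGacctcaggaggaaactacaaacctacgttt
Clone E alpha TRAV7D-2 TRAJ9: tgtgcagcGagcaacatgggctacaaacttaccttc
The junctions ran from 0 bases in the TRAV3-3 chain of clone D to 7 in its TRAV5-4 chain. Apart from clone A, whose alphas both used TRAJ22, the alphas of each of these clones used different TRAJ segments. On the mouse build mm10 these segments lie on chromosome 14, TRAJ22 at chr14:54197248-54197307, TRAJ39 at chr14:54179962-54180024 and TRAJ43 at chr14:54174742-54174798, as named by RefSeq on the matching assembly. Copies of a TRAV gene marked D or N are near-identical duplicates, so the family is more certain than the copy.

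The share of two-alpha cells was similar in most libraries and highest in the pair from 1 lucOS sgp53 animal. In luc NICD, 13 of 202, 4 of 50 and 2 of 38 cells had 2 alpha chains, which is 6.44%, 8% and 5.26%. In female lucOS NICD the counts were 14 of 295, 5 of 108 and 13 of 175, or 4.75%, 4.63% and 7.43%. In luc sgp53 they were 25 of 310, 44 of 422 and 43 of 495, or 8.06%, 10.4% and 8.69%. The 95% Wilson intervals, which cover counting error only, reached from 1.46% to 17.3% for the library of 38 cells. Most of these 9 intervals overlapped, but that of female lucOS NICD replicate 1 (2.85 to 7.81%) ended just below that of luc sgp53 replicate 2 (7.86 to 13.7%). In lucOS sgp53 replicates 1 and 2 the share was 8.42% (83 of 986) and 5.63% (33 of 586). Replicates 3 and 4, from 1 animal, had 20.1% (120 of 598, 17.1 to 23.5%) and 15.9% (80 of 502, 12.99 to 19.4%). The intervals of this pair lay above the value of every other library. With each clonotype counted once the pair came to 12.2% and 8.95%, against 5.38% to 11.7% in the other libraries. The male lucOS NICD libraries had 8.28% (36 of 435) and 8.35% (42 of 503).

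**Figure D1:**
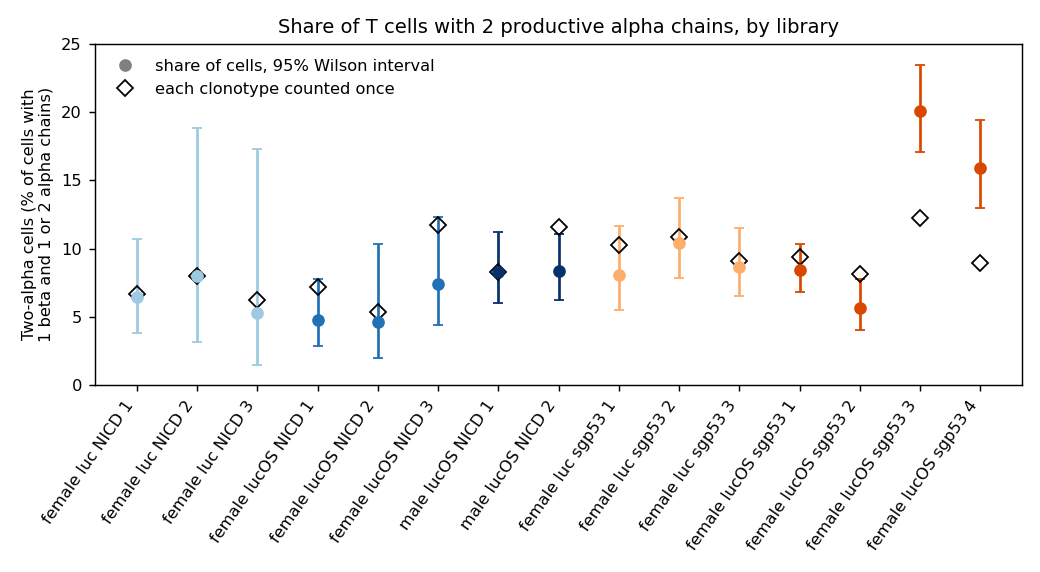
Share of two-alpha cells among cells with 1 beta and 1 or 2 alpha chains in each of the 15 libraries. Filled points are shares of cells with 95% Wilson intervals, coloured by group, and open diamonds count each clonotype once. Replicates 3 and 4 of female lucOS sgp53 stand at 20.1% and 15.9% by cells and at 12.2% and 8.95% by clonotypes.

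The question whether the model antigens, the oncogenic driver or sex went with more two-alpha cells was tested on animals. Female lucOS tumours had 8.14% ± 5.06 (SD, n = 6) and female luc tumours 7.81% ± 1.79 (n = 6), and the groups overlapped (two-sided exact permutation test within driver, p = 0.94). Female NICD tumours had 6.08% ± 1.43 (n = 6) and sgp53 tumours 9.87% ± 4.27 (n = 6). That difference of -3.79 percentage points had an exact permutation p of 0.025 within construct, and after Benjamini-Hochberg adjustment over the 10 tests of single values it stood at 0.05, not under the threshold of 0.05. It was -2.19 with each clonotype counted once and -1.96 without the animal of lucOS sgp53 replicates 3 and 4. Over the alternatives other than leaving out an animal its adjusted p ran from 0.0167 to 0.444. Depth per cell moved with it: the median beta contig had 6 to 9 UMIs in the female NICD libraries and 9 to 14 in the sgp53 libraries. In 11 of 15 libraries the share was higher among cells at or above the library's median beta UMIs than below it. The means over libraries were 10.0% and 6.80%. The gap was widest in lucOS sgp53 replicates 3 and 4, from 1 animal, at 25.7% against 12.5% and 23.1% against 5.42%. These 2 libraries were not averaged in those means. With every cell thinned to 3, 4, 5 or 6 alpha UMIs, the difference was -1.68, -4.29, -4.77 and -7.38 points. At 4 UMIs this kept 16 to 174 cells of a female NICD library and 194 to 545 of an sgp53 library. Male lucOS NICD tumours had 8.31% ± 0.0523 (SD, n = 2) and female ones 5.60% ± 1.58 (n = 3), where the exact permutation test gave p = 0.20 and could give no less than 0.10. All p-values measure the spread between these animals only.

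In most two-alpha cells both alpha chains rested on more than 1 UMI. The chain with fewer UMIs had 1 to 3 in 184 of the 359 clonotypes. Over all cells, the alpha with more UMIs, called the first alpha, had a median of 7 UMIs and the second a median of 4. The pooled median was also 4 in the alpha of one-alpha cells. Within single libraries the median of the second alpha was mostly below that of one-alpha cells. It was 2 against 5 in female lucOS NICD replicate 3 and 5 against 7 in lucOS sgp53 replicate 3. In luc sgp53 replicate 1 it was higher, at 5 against 4, and in a few libraries it was equal. The second alpha had at least 50% of the UMIs of the first in 424 of the 557 cells (76.1%), and 70 cells had equal UMIs in both. In 37 cells (6.64%) the second alpha rested on 1 UMI, against 10.9% of one-alpha cells for their only alpha, both over pooled cells. The sequences of both chains were far apart, with an edit distance of at least 3 bases and a median of 18, and no cell had the same TRAV gene and TRAJ segment in both. An alpha chain that also occurred with another beta in the same library was the second alpha in 16 cells (2.87%) and the first in 41 (7.36%), and was the only alpha of 407 one-alpha cells (7.91%).

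More receptor UMIs were counted in two-alpha cells than in one-alpha cells of the same library. Over the 12 animals with at least 5 two-alpha cells in a library, the summed alpha UMIs averaged 3.17 ± 0.39 on the log2 scale (SD) against 2.07 ± 0.26, a 2.13-fold difference. This sum is a description: it sets 2 contigs against 1, so its direction follows from how the cells were chosen. The first alpha by itself was higher by 0.38 on the log2 scale, 1.298-fold, in 10 of 12 animals (exact sign-flip test, adjusted p = 0.0163). The first alpha is by construction the larger of a pair, which the alpha of a one-alpha cell is not. The beta chain was higher by 0.18, 1.13-fold, in 10 of 12 animals (exact sign-flip test, p = 0.0176, adjusted p = 0.0439). The 10 tests adjusted together include the summed alpha UMIs and the first alpha. Their small p-values owe something to how the cells and chains were chosen, and can lower the adjusted p of the beta chain. The beta result was lost in 9 of the 14 leave-one-out fits and was 0.015 among cells at or above the median beta UMIs. Of these fits, those without luc NICD replicate 2 or 3 keep the same 12 animals, since these 2 had under 5 two-alpha cells. Whether deeper cells were more likely to show a second alpha, or two-alpha cells hold more transcripts, cannot be told apart here.

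The 2 alpha chains of a cell used TRAJ segments that lay closer together than those of different clonotypes. TRAJ segments are numbered from the constant gene outward, and in mm10 their numbers fall along chromosome 14 in all 43 segments seen, over 60.6 kb. The mean difference in TRAJ number within a cell was 8.01 ± 2.74 (SD, n = 12 animals), against 17.2 ± 2.61 between an alpha of one cell and the other alpha of a cell of another clonotype in the same library. It was smaller within cells in 12 of 12 animals (exact sign-flip permutation test, adjusted p = 0.00244, from the smallest p that this test can give, 0.000488). In single libraries the difference within cells ran from 3.50 in lucOS sgp53 replicate 4 to 13.8 in female lucOS NICD replicate 2, and the difference between cells from 13.6 to 21.9. These values count every cell, so expanded clones weigh in them. In lucOS sgp53 replicate 4, 30 of the 80 two-alpha cells were of clone A, with a TRAJ difference of 0. In each of the 13 libraries with at least 5 such cells the value within cells was the lower one, although the female lucOS NICD replicate 2 library, with 5 cells, showed only 13.8 against 16.4.

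**Figure D2:**
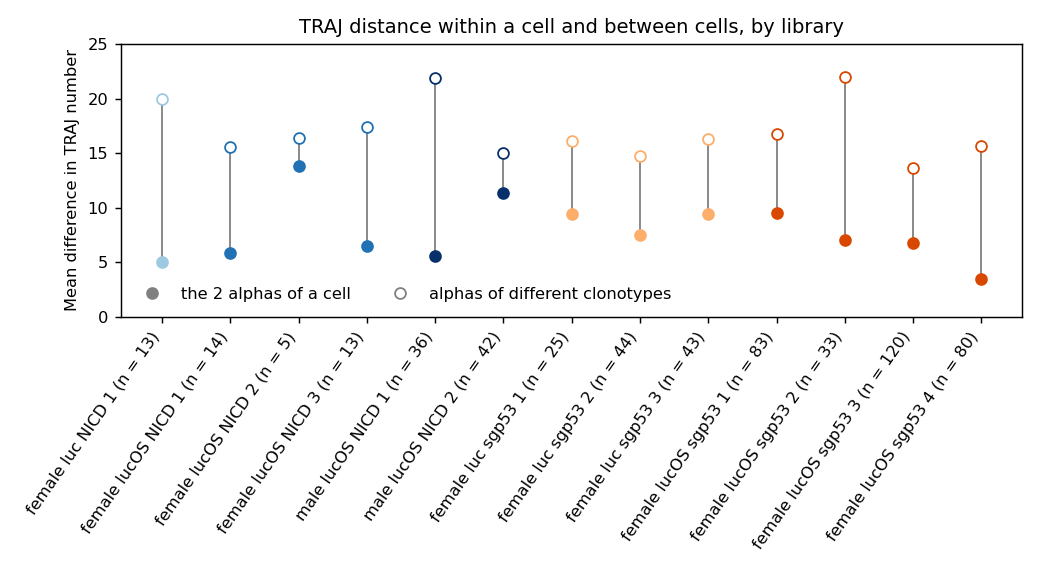
Mean difference in TRAJ number between the 2 alphas of a cell (filled) and between alphas of different clonotypes (open) in the 13 libraries with at least 5 two-alpha cells, with the number of such cells. The filled point is below the open point in every library, from 3.50 against 15.7 to 13.8 against 16.4. Cells, not clonotypes, are counted.

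Counted once per clonotype, the mean difference was 8.32 TRAJ numbers. It was at most 5 in 42.3% of the 359 clonotypes, against 20.6% of pairings between clonotypes, and over 20 in 6.13% against 31.7%. As a description over these 359 points, which share animals, libraries and segments, the TRAJ numbers of both alphas had a Pearson r of 0.703 and a Spearman rho of 0.707. The mean difference was 8.81 where the second alpha had 1 to 3 UMIs (184 clonotypes) and 7.81 where it had 4 or more (175). In genomic distance the TRAJ segments of a clonotype lay 8.73 kb apart on average, against 16.7 kb between clonotypes. The TRAV genes of a clonotype lay 346 kb apart, against 393 kb, and were closer within clonotypes in 10 of 13 libraries, with a Pearson r of 0.195. The closeness was thus much clearer for TRAJ than for TRAV in these counts, and no test of that contrast was run. The TRAV distances rest on the assigned gene copy, which is less certain than the family. Copies can lie far apart, such as TRAV14D-3-DV8 from chr14:53078547 and TRAV14-3 from chr14:53763196. How far copy assignment changed the TRAV values was not tested.

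Other barcodes of the same libraries give a scale for these values. In the 92 barcodes with 2 betas and 2 alphas the mean TRAJ difference was 13.97, with 15.96 between barcodes, and the Pearson r was 0.141. Of these barcodes 28.3% had a difference over 20, against 6.13% of two-alpha clonotypes. In 828 one-alpha clonotypes with exactly 1 further, unproductive alpha contig, the difference between the productive and the unproductive alpha was 8.99, with 15.7 between clonotypes and an r of 0.666. Two-alpha clonotypes therefore resembled the cells with a productive and an unproductive alpha more than the two-beta barcodes in this value, as a description with no test of the difference. An unproductive alpha contig was present in 1152 one-alpha cells (22.4%) and in 12 two-alpha cells (2.15%), which already have 2 alpha rearrangements.

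**Figure D3:**
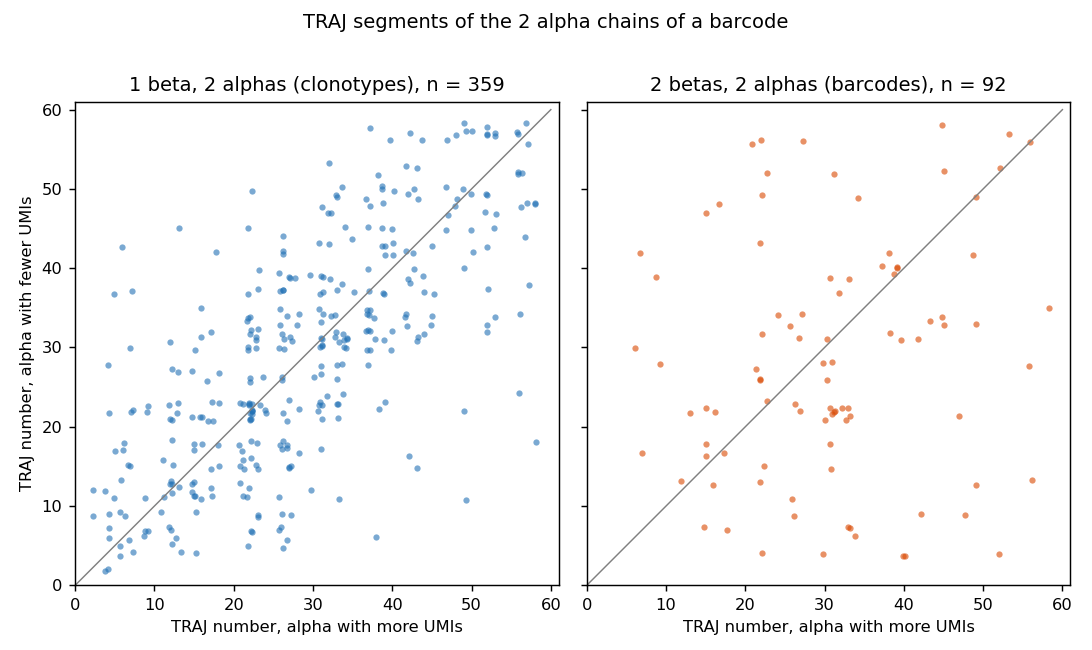
TRAJ number of the alpha with more UMIs (x axis) against that of the alpha with fewer UMIs (y axis), for 359 two-alpha clonotypes (left) and 92 barcodes with 2 betas and 2 alphas (right). Points are shifted by under 1 for visibility, and the line marks equal numbers. Points on the left gather along the line (r = 0.703), and those on the right spread over the plot (r = 0.141).

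No single TRAJ pair made up the pattern. Counted once per clonotype and library, the most frequent pairs were TRAJ22 with TRAJ22 and TRAJ23 with TRAJ31, 5 clonotypes each of 359, and then TRAJ12 with TRAJ13, TRAJ15 with TRAJ27 and TRAJ22 with TRAJ23, 4 each. For the V segments the most frequent pair of families was TRAV6 with TRAV7, in 21 clonotypes of 11 libraries. TRAV6 with TRAV14 followed with 15, TRAV12 with TRAV13 and TRAV7 with TRAV12 with 14 each, and TRAV6 with TRAV13 with 13. Both alphas came from the same TRAV family in 40 cells and from the same TRAJ segment in 53.

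TRAV11, TRAJ18 and TRAJ30 were rarer among the alpha chains of two-alpha cells than of one-alpha cells. Of 15 TRAV families tested, 1 differed at an adjusted p under 0.05 (6.67%). This was TRAV11, the V segment of the invariant receptor of NKT cells, at 0.538% ± 0.919 (SD) of alpha chains in two-alpha cells and 2.46% ± 1.34 in one-alpha cells. It was lower in 12 of 12 animals (exact sign-flip permutation test, adjusted p = 0.00732), but in 1 library, lucOS sgp53 replicate 4, it was higher, at 1.88% against 0.711%. With that library alone standing for its animal the adjusted p was 0.0513. Of 35 TRAJ segments, 2 differed (5.71%): TRAJ18, which joins TRAV11 in NKT cells, was at 1.19% against 3.24% (lower in 11 of 12 animals, exact sign-flip test, adjusted p = 0.0342), and TRAJ30 at 1.65% against 5.19% (lower in 11 of 12, adjusted p = 0.0427). TRAV11 was at 0% of the two-alpha chains in 8 of the 13 libraries. With few two-alpha cells, a rare family can be missed by count alone. Female lucOS NICD replicate 2 had 5 such cells, and TRAV11 was in 2.91% of its one-alpha cells. In male lucOS NICD replicate 2, which counts as lower, the shares were 2.381% and 2.386%. TRAJ30 reached 16.3% of the one-alpha cells of lucOS sgp53 replicate 2 against 3.03% of its two-alpha chains.

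These shares are of chains, and an invariant alpha in a two-alpha cell fills 1 of 2 places. Counted per cell, TRAV11 on either chain was present in 1.08% of two-alpha and 2.46% of one-alpha cells, TRAJ18 in 2.34% and 3.24%, and TRAJ30 in 3.30% and 5.19%. None of these 3 passed the adjusted threshold in that count (adjusted p of 0.108, 0.455 and 0.275 by the exact sign-flip test). Over all alternatives that kept every animal, the adjusted p ran from 0.00183 to 0.146 for TRAV11, from 0.00854 to 0.455 for TRAJ18 and from 0.0166 to 0.451 for TRAJ30. With 1 animal left out at a time, TRAJ18 missed the threshold in 10 of 14 fits and TRAJ30 in 11 of 14, and TRAV11 passed in all 14. The fits without luc NICD replicate 2 or 3 repeat the main result. Those libraries had 4 and 2 two-alpha cells, under the minimum of 5, and were never in these tests. A full TRAV11 to TRAJ18 receptor was carried by 8 two-alpha cells (1.44%, 0.729 to 2.81%) and 115 one-alpha cells (2.23%, 1.86 to 2.67%). TRAV1 with TRAJ33 is the alpha chain of mucosal-associated invariant T cells. It was carried by 4 two-alpha cells (0.718%, 0.280 to 1.83%) and 121 one-alpha cells (2.35%, 1.97 to 2.80%). The ranges for both receptors are Wilson intervals over cells pooled from all libraries. They cover counting error only, not the spread between animals or clones. By library, TRAV1 ran from 0% to 11.7% of one-alpha cells, and lucOS sgp53 replicates 3 and 4 supplied 120 and 80 two-alpha cells. A difference in either full receptor was not tested across animals. TRAV1 itself was at 3.99% of two-alpha and 3.50% of one-alpha chains and TRAJ33 at 3.34% and 6.72% (exact sign-flip test, adjusted p = 0.835 and 0.0968).

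**Figure D4:**
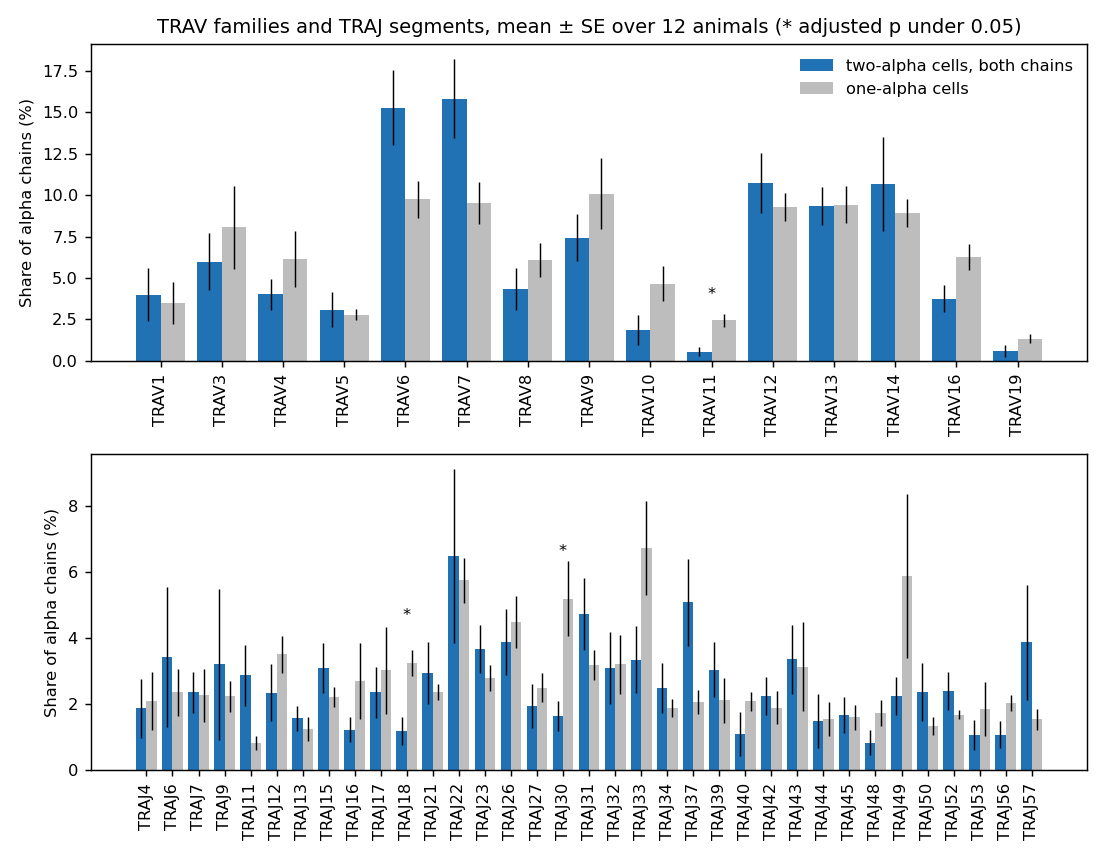
Mean share of alpha chains, in percent, that used each tested TRAV family (top) and TRAJ segment (bottom) in two-alpha cells, both chains counted, and in one-alpha cells. Bars are means over 12 animals, lines are standard errors, and stars mark adjusted p under 0.05, reached by TRAV11, TRAJ18 and TRAJ30, all lower in two-alpha cells.

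TRAV7 and TRAV6, the families most used in two-alpha cells, averaged 15.8% and 15.3% of their alpha chains against 9.52% and 9.74% in one-alpha cells. Neither passed the threshold (adjusted p of 0.135 and 0.240, exact sign-flip test, higher in 10 and 8 of 12 animals). With each clonotype counted once, the count of families called was 4, and TRAV7 rose by 4.24 points, TRAV6 rose by 6.17 and TRAV19 fell by 1.06 beside TRAV11. TRAV7 was at 37.5% of two-alpha chains in male lucOS NICD replicate 1, the library of clone E, which has a TRAV7 alpha. In lucOS sgp53 replicates 3 and 4, the libraries of clones A to D, TRAV7 stood at 5.83% and 1.25%, below their one-alpha cells. None of 20 TRBV entries passed the adjusted threshold (0%), and 1 had an unadjusted exact sign-flip p under 0.05. Among cells at or above the median beta UMIs, 2 TRBV entries passed. The mean TRAJ number was 29.4 in two-alpha and 29.8 in one-alpha cells and the mean alpha CDR3 length 41.2 and 40.7 bases, neither past the threshold (exact sign-flip test, adjusted p = 0.902 and 0.285, n = 12).

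Two-alpha cells were less often in expanded clones in 11 of 12 animals, a difference that did not pass the test over all 12. A beta clone was all cells of a library with the same TRBV, TRBJ and CDR3 nucleotides. Of the 557 cells, 293 were alone in their beta clone, 63 were in clones of 2 to 4 and 201 in clones of 5 or more. The share in clones of 2 or more averaged 30.2% ± 24.8 (SD) in two-alpha and 39.0% ± 19.8 in one-alpha cells (exact sign-flip permutation test, adjusted p = 0.171). The 11 animals with a lower share had it lower by 2.82 to 44.1 points in single libraries. The exception was the animal of lucOS sgp53 replicates 3 and 4, where 75.8% and 77.5% of two-alpha cells stood against 50.4% and 52.1% of one-alpha cells. Without that animal the difference was -11.9 points, and the other 11 animals then share a sign by the choice of the animal left out, so no p is given. With each clonotype counted once it was 2.62 points in the opposite direction.

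In the leading clones the second alpha was found in many, not all, cells of the beta clone. These clones were picked for having the most cells with both alphas, which favours high shares. The 8 betas were carried by 299 cells, of which 178 showed both alphas, 109 showed 1 of them, 12 showed none and 0 showed another alpha. Clone A had both in 38 of 50 cells, clone B in 35 of 45, clone D in 31 of 39 and clone E in 19 of 21, shares of 76.0% to 90.5%. Clones F, G and H had both in 11 of 21, 5 of 8 and 4 of 5 cells. Clone C differed in its pattern, with both alphas in 35 of 110 cells (31.8%, 23.8 to 41.0%), the TRAV8D-2 to TRAJ39 alpha alone in 69 and the TRAV9N-4 to TRAJ43 alpha alone in 2. This held in each of its libraries, with both alphas in 16 of 35 and 19 of 75 cells. The 69 cells had a median of 21 beta UMIs and 9 UMIs of their alpha, close to the 22 beta UMIs of the cells with both, whereas the TRAV9N-4 alpha had a median of 5 UMIs where it was seen. In 6 of the 69 an unproductive contig with TRAJ43 was present. In clone A the 4 cells with the TRAV14N-3 alpha alone had a median of 10 beta UMIs and the 6 with the other alpha alone 6.5, against 26 in cells with both. How much of the missing alpha in clone C is transcript capture was not tested.

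**Figure D5:**
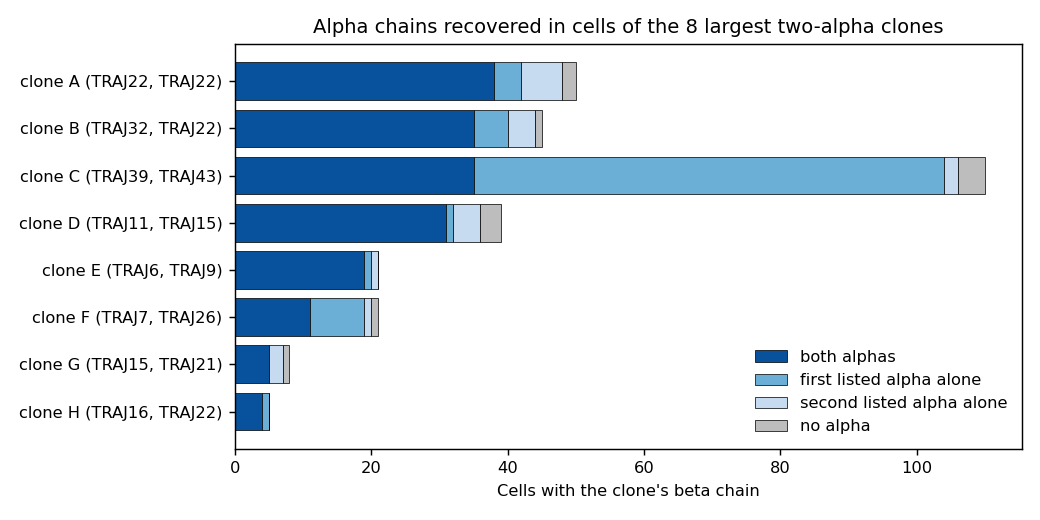
Cells that carry the beta chain of each of the 8 largest two-alpha clones (bars, number of cells), split by the alpha chains recovered. Clone C has both alphas in 35 of 110 cells and its TRAJ39 alpha alone in 69, and clones A, B, D and E have both in most cells.

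Over all 31 alpha pairs seen in 2 or more cells, their beta clones held 404 cells, with both alphas in 236, 1 of the pair in 149, none in 17 and another alpha in 2. The share with both was 58.4% of the pooled cells, of which clone C supplied 110, and 79.5% as the median over the 31 clones. Each clone entered because at least 2 of its cells showed both alphas, which raises these shares. They are therefore no estimate of how often both alphas are recovered. Among 33 beta clones with 2 or more two-alpha cells, 32 had a single alpha pair. The libraries of lucOS sgp53 replicates 3 and 4 held 40 and 23 alpha pairs, of which 6 were in both. These are 15% and 26.1% of the pairs and 80 of 120 and 63 of 80 of the two-alpha cells. No beta with both its alphas, compared by nucleotides, was seen in 2 animals.

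Single chains of two-alpha clones did recur between animals. The beta of clone E, which occurred in 21 cells of male lucOS NICD replicate 1 with 20 cells each showing its TRAV14 to TRAJ6 and its TRAV7 to TRAJ9 alpha, had this CDR3:
Clone E beta: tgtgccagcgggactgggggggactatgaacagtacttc
The same beta nucleotides were found in 5 cells of female lucOS NICD replicate 2, 1 cell of replicate 3, and 18 and 30 cells of lucOS sgp53 replicates 3 and 4. Of these, 5, 1, 16 and 27 cells carried the peptide of the TRAV14 to TRAJ6 alpha, by the same nucleotides in all libraries except female lucOS NICD replicate 3. None carried the TRAV7 to TRAJ9 alpha, and none was a two-alpha cell. The recurring chain of clone E was thus the TRAV14 alpha, and all 4 animals that held it bore lucOS tumours, a comparison that was not tested. Of the animals compared, 6 of 12 females and 2 of 2 males bore lucOS tumours, and clone E was itself picked from a lucOS animal. The beta CDR3 peptide of clone F also occurred in 45, 2 and 28 cells of lucOS sgp53 replicates 2, 3 and 4, in each case without either of its alphas.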

How the data were processed

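The authors deposited, for each of the 15 receptor libraries, a table of assembled contigs with counts of UMIs and reads per contig. The submitters' processing notes name Cell Ranger, Seurat and the build mm10, without versions. The libraries came from the 10x Genomics 5′ assay, per the labels. The members, lists and tests were chosen with earlier results of these data known. Cells were built with Python 3.11.15, pandas 2.3.3, numpy 2.4.6 and scipy 1.17.1 from productive, high-confidence contigs. Doublets were treated only by leaving out barcodes with 2 betas.

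Shares were compared between animals by two-sided exact permutation within the other factor (400 arrangements, 10 for sex). Two-alpha and one-alpha cells were compared within animals by an exact sign-flip test (4096 arrangements) in libraries with at least 5 two-alpha cells. Benjamini-Hochberg adjustment covered the 10 single-value tests, and each of the 3 usage comparisons separately, over families or segments averaging 1% or more. The 10 include the summed and first alpha UMIs, whose direction the choice of cells or chains favours. Their presence can lower the other adjusted values, that of NICD against sgp53 among them. UMIs were compared as log2 means. The computation recovered planted differences on simulated data. There each two-alpha cell drew its alphas independently, so expanded alpha pairs were not simulated. The planted differences in TRAV11 use, share and TRAJ distance were larger than those reported here. Recovery of differences of the reported size was not simulated. Named segments were those with an adjusted p under 0.05, or the 5 lowest p, plus TRAV11, TRAJ18, TRAV1 and TRAJ33; named clones were the 8 alpha pairs with most cells in an animal. Alternatives included UMI minimums, other denominators, each clonotype counted once and each animal left out. The 131 TRAV and TRAJ names all matched RefSeq on GRCm38.p6, the assembly of mm10. The bulk TPM table was not used.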

Additional observations from a re-analysis of the deposited data

How the results depend on the processing

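The closeness of the TRAJ segments within cells kept its direction and stayed past the threshold in all settings run. The difference in TRAJ number ran from -10.2 to -7.21 over 12 settings and from -9.81 to -8.57 when an animal was left out. Dropping the high-confidence filter or merging near-identical alpha pairs changed no value of the shares. The NICD against sgp53 share difference passed the threshold with at least 3 UMIs per alpha (-5.99), with all cells of 1 beta (-3.52) or of 1 or more betas (-3.29) as denominator and at 6 thinned UMIs (-7.38); the thinning was chosen after seeing the data. When an animal was left out it ran from -5.05 to -1.96. The lucOS against luc difference, far from the threshold, changed sign with 1 library of the shared animal (-0.0145), on the logit scale (-0.0895) and at 3, 5 and 6 thinned UMIs (-1.07, -0.0936 and -1.81), and ran from -1.50 to 1.59 when an animal was left out. For male against female, that range was 2.23 to 3.62. Beta UMIs lost the threshold with at least 2 or 3 UMIs per alpha (0.14 and 0.20), in cells at or above the median beta UMIs (0.015), as medians (1.58 UMIs) and with minimums of 10 or 1 two-alpha cells (0.17 and 0.15), and ran from 0.14 to 0.21 when an animal was left out. The first alpha lost it with at least 2 UMIs (0.27) and at or above the median (0.32). The share in clones and the mean TRAJ number changed sign once per clonotype (2.62 and 0.13); when an animal was left out they ran from -11.9 to -5.59 and from -1.49 to 0.088. The count of TRAV families called was 0 in cells at or above the median and with the second library of the shared animal, 3 at the gene level, 4 once per clonotype and 4 per cell, a count chosen after seeing the data in which common families gain from having 2 chains; it was 1 to 2 when an animal was left out. The count of TRAJ segments called was 0 with at least 2 UMIs, at or above the median, with a minimum of 10 cells and per cell, and 0 to 3 when an animal was left out. TRBV calls numbered 2 in cells at or above the median and 0 in the other settings. Between groups, animals could not be paired, because the labels give no replicate numbers. The smallest library, with 38 cells, leaves its share between 1.46% and 17.3%.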
